A study of Mus musculus with 8 samples.

Results

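The genes described here are the cytochrome P450 genes of families 1 to 3 with reads in mouse liver. They were chosen by symbol alone: every gene whose symbol has the letters Cyp, a family number from 1 to 3, 1 subfamily letter and a final number, and whose average level lay above the lowest value in the table. There were 50 such genes among 18937 genes with reads, and they fell into 14 subfamilies.

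RNA was sequenced from livers of adult male C57BL/6NHsd mice aged 12 to 14 weeks and fasted for 6 h, in 2 groups of 4. Wild-type mice carry valine at the codon of Ppara that was edited, and Ppara encodes the fatty acid-sensing nuclear receptor PPARɑ. V227A mice are homozygous for alanine at that codon, a germline change made by adenine base editing (NG-ABEmax) in C57BL/6NHsd zygotes, and the line goes back to 1 heterozygous founder. It was kept by breeding heterozygotes, and the diet of the sequenced mice was not given in the sources used here. Values for single libraries were not analysed here. Each level below is the authors' average over all 8 livers of both genotypes, so it carries no spread between animals, and no difference between wild-type and V227A livers is given. The genotype labels could not be checked against expression either.

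Cytochrome P450 enzymes of these families are haem proteins of the endoplasmic reticulum that insert an oxygen atom into drugs, dietary chemicals, steroids, bile acids and fatty acids. They take electrons from NADPH through P450 oxidoreductase, and some also from cytochrome b5. In the liver they sit mostly in hepatocytes, many of them around the central vein, and their genes are controlled by the nuclear receptors PXR and CAR, by the aryl hydrocarbon receptor AhR and by the sex-dependent pattern of growth hormone release. Mice have many more genes in the Cyp2c, Cyp2d and Cyp3a subfamilies than humans, in tandem arrays of close copies.

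The unit is CPM, the reads of a gene scaled to a common library size, on the log2 scale and averaged over libraries by edgeR with a small prior count. Longer transcripts collect more reads, so levels are compared between genes after division by transcript length, as log2 CPM per kilobase. The length is that of the longest protein-coding transcript, or of the longest transcript where a gene has no protein-coding one. Shares of CPM, ranks by CPM and counts of genes past a CPM level are not divided by length unless stated. A transcript length was available for 49 of the 50 genes, and these lengths ran from 1163 to 5128 bases with a median of 1875. The mean effective library size worked out from the lowest value was 27474001 reads, from which estimated reads per library follow for each gene. Intervals and limits given for reads cover counting error only.

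The tissue fitted its label. All 7 hepatocyte markers had reads, from 8.38 log2 CPM per kilobase for Cps1 to 15.06 for Alb, the gene of serum albumin. The 4 cholangiocyte markers lay between -1.64 and 1.26 log2 CPM per kilobase, the 4 Kupffer cell and macrophage markers between 0.56 and 5.05, the 4 endothelial markers between 1.90 and 4.72, and the 4 stellate cell markers between 0.32 and 5.82. The 4 intestinal markers spread from -4.57 to 6.48 log2 CPM per kilobase, and the high ones, Apoa4 and Fabp2, are also hepatocyte genes. Of 4 kidney markers 3 had reads, none above -2.96 log2 CPM per kilobase, and Slc12a1 had none. In bulk liver, fewer cells of a type and less RNA per cell cannot be told apart.

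As a group the P450 genes lay above the typical liver gene. They made up 0.264% of genes with reads and 2.66% of the summed CPM, or 2.51% when every gene was first divided by its transcript length. Their median level was 3.56 log2 CPM per kilobase, against 0.61 for all genes with reads and a length. Before division by length, 25 of the 50 (50%) reached 5 log2 CPM, which 18.4% of all genes with reads did, and 16 (32%) reached 8 log2 CPM, which 2.48% of all genes did. Among the 100 genes with the most reads in the table, 4 were P450 genes of these families.

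The total rested on few of them. Cyp2e1 alone held 39.8% of the CPM summed over the 50 genes, the first 3 genes held 59.7%, the first 10 held 84.9% and the first 20 held 97.7%. At the other end, 12 genes lay below 0 log2 CPM, while 38 (76%) reached it, against 61.8% of all genes with reads. In all 8 libraries together, 8 genes had fewer than 100 estimated reads. By family, the 40 genes of family 2 held 81.0% of that CPM, the 7 genes of family 3 held 15.9% and the 3 genes of family 1 held 3.12%.

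**Figure D1:**
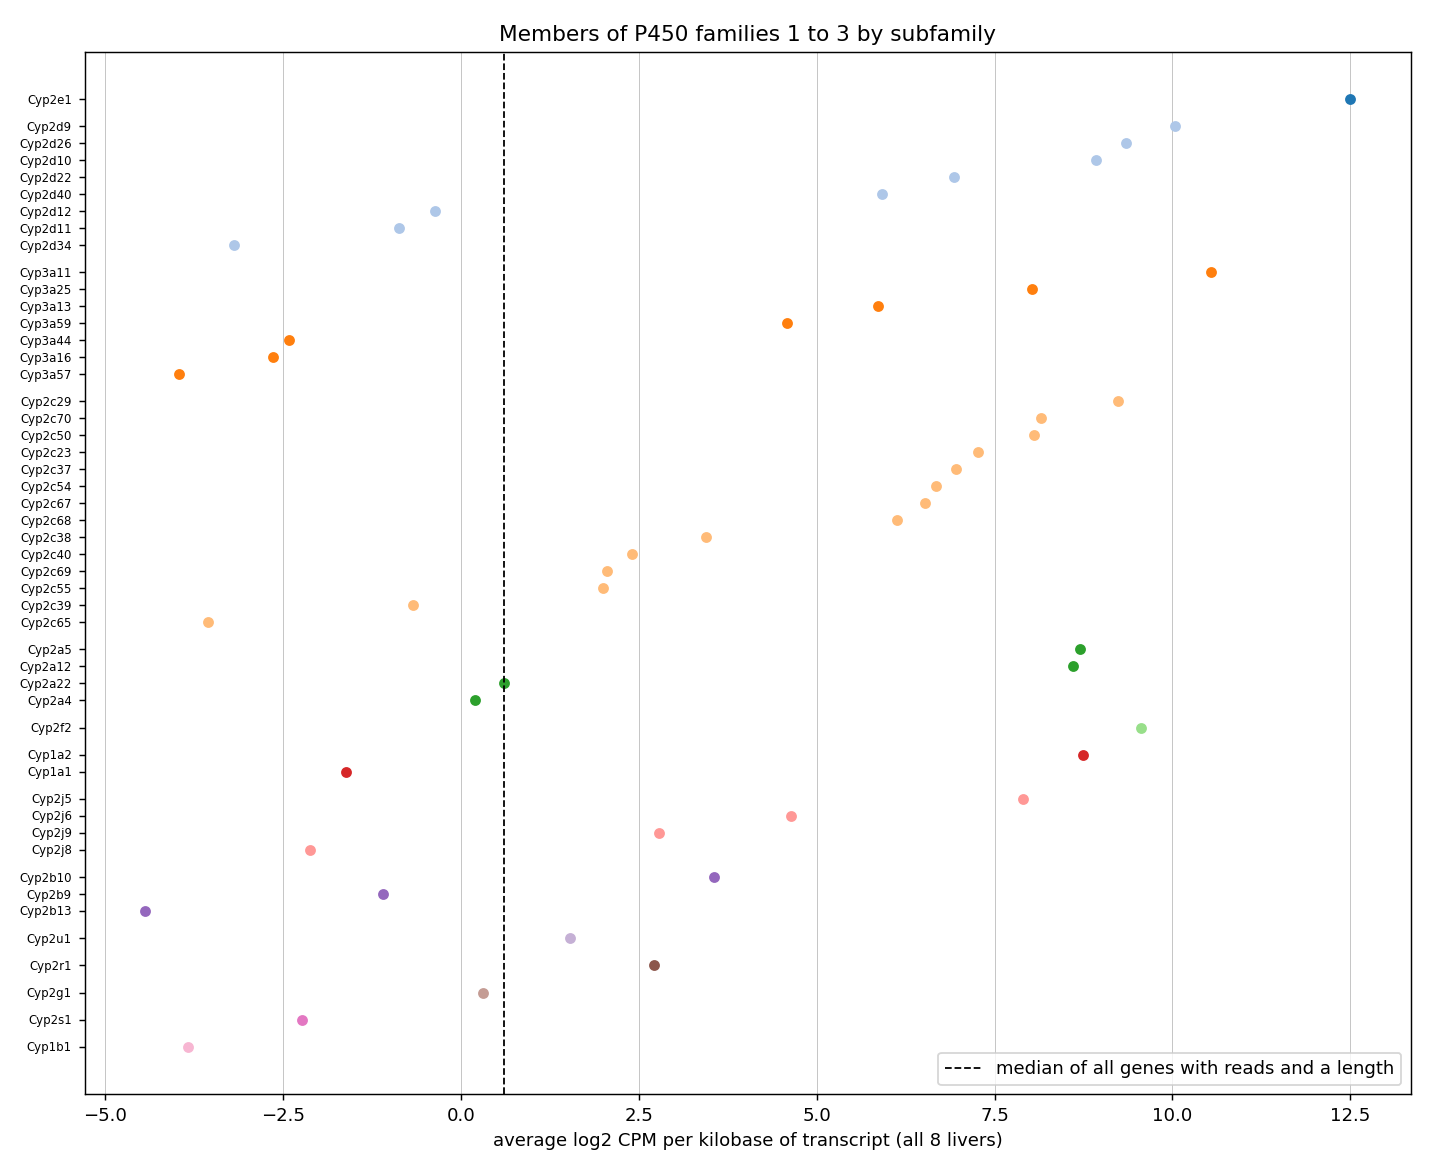
Average level of each P450 gene over all 8 livers, in log2 CPM per kilobase of transcript, with 1 point per gene, coloured and grouped by subfamily and ordered by the subfamily's summed CPM. The dashed line is the median of all genes with reads and a length (0.61), and Cyp2d13 is left out because it has no transcript length. Cyp2e1 stands apart at 12.50, and within Cyp2d, Cyp3a and Cyp2c the genes spread over most of the axis.

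**Figure D2:**
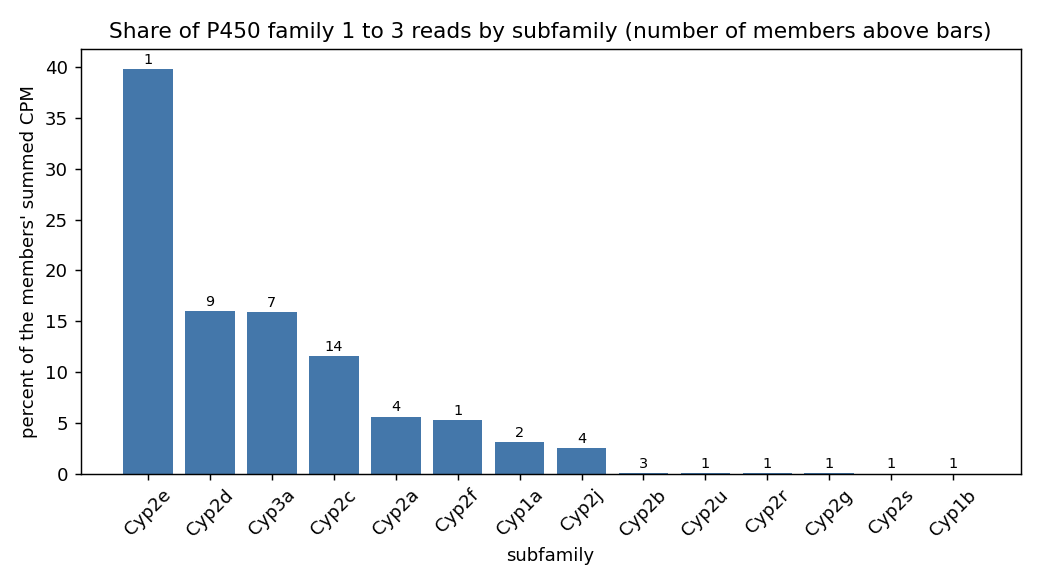
Percent of the CPM summed over the 50 P450 genes that each subfamily held, with the number of its genes above the bar. Cyp2e, with 1 gene, held 39.8%, and Cyp2d, Cyp3a and Cyp2c followed with 16.0%, 15.9% and 11.6%.

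Cyp2e1 oxidises ethanol, acetone, paracetamol and other small molecules. It had the highest level of the 50 genes, 13.37 log2 CPM and 12.50 log2 CPM per kilobase, and ranked 10 among all genes by CPM. About 291489 reads per library fell on it, and it alone took 1.06% of all CPM. The gene lies on the plus strand of chromosome 7 at 140763739 to 140774987 (GRCm38), away from the other P450 genes, and its main transcript has 9 exons. It is the only Cyp2e gene in the table, and 1.5% of its 100-base windows occurred in another gene's transcripts. The 250 bases before its start, read 5′ to 3′ from RefSeq (GRCm38.p6) like all sequences here, are shown because it is the highest gene of family 2, with the capitals marking the letters TATAAA, the core of a TATA box.

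Cyp2e1 (chr7:140763569-140763818, plus strand): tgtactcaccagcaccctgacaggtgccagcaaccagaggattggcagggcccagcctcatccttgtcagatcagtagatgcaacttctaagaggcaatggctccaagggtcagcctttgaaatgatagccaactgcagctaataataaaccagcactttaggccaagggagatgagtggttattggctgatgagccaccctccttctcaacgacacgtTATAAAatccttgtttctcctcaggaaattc

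Counted back from the RefSeq start, that TATAAA begins 31 bases upstream, the usual place of a TATA box. GENCODE vM21, the annotation used for gene positions here, starts the gene 80 bases further upstream than RefSeq does, inside the window shown.

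In the Cyp2d subfamily all 9 genes had reads, and together they held 0.426% of all CPM. Cyp2d9, a steroid 16-alpha-hydroxylase of male mouse liver, led with 10.04 log2 CPM per kilobase, 49551 estimated reads per library and 42.2% of the subfamily's CPM. Cyp2d26 followed at 9.34 log2 CPM per kilobase and Cyp2d10 at 8.93. Cyp2d22, often set beside human CYP2D6, reached 6.93 log2 CPM per kilobase and Cyp2d40 reached 5.92. These 5 genes were far above the remaining ones with a length: Cyp2d12 stood at -0.36 log2 CPM per kilobase, Cyp2d11 at -0.88 and Cyp2d34 at -3.19, the last with 24 estimated reads in all libraries (95% Poisson interval 15.4 to 35.7). The ninth, Cyp2d13, had 7.21 log2 CPM and 4079 estimated reads per library, though RefSeq lists it as a transcribed pseudogene. It has no entry in GENCODE vM21, so no level per kilobase is given for it.

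Cyp2d9 and Cyp2d11 have coding sequences that are 93.3% identical and levels 10.92 apart on the log2 CPM per kilobase scale. Cyp2d11 and Cyp2d10 are 94.7% identical and 9.81 apart on that scale. The promoters of Cyp2d9 and Cyp2d11 are shown for this contrast, a pair picked after the levels were seen. Capitals mark the 31 bases of each window that differ or have no partner in the alignment, and 87.6% of the 250 bases match.

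Cyp2d9 (chr15:82452127-82452376, plus strand): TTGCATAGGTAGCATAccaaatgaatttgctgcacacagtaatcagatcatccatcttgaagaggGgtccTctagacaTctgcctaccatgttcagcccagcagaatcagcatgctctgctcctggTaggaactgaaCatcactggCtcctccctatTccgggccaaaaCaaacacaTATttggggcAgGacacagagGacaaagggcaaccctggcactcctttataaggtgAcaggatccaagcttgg
Cyp2d11 (chr15:82394023-82394272, minus strand): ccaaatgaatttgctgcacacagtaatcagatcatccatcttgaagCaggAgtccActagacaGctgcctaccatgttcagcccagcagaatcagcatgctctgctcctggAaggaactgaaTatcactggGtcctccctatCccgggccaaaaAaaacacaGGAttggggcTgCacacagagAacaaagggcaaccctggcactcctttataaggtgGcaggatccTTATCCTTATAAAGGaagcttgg

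Apart from the ends of the windows and a run of capitals near the start of Cyp2d11, most of both sequences is in lower case. The close match thus extends from the coding part into much of the promoter. The run in Cyp2d11 holds TATAAA, beginning 16 bases upstream of the RefSeq start. Cyp2d9 has no TATAAA on its own strand in this window, and whether this bears on the levels was not tested. GENCODE starts Cyp2d9 18940 bases upstream of the RefSeq start used for this window, and Cyp2d11 at the same base as RefSeq.

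The Cyp3a enzymes oxidise a large share of medicines and also steroids and bile acids, and PXR is their best known inducer. The 7 genes held 0.423% of all CPM, and Cyp3a11, the main Cyp3a gene of adult mouse liver, supplied 82.5% of it with 10.54 log2 CPM per kilobase and 96021 estimated reads per library. Cyp3a25 followed at 8.03 log2 CPM per kilobase, Cyp3a13 at 5.86 and Cyp3a59 at 4.59. Cyp3a44 at -2.42 log2 CPM per kilobase, Cyp3a16, known from fetal liver, at -2.64 and Cyp3a57 at -3.96 had few reads, 65, 45 and 12 in all libraries (95% Poisson intervals 50.2 to 82.8, 32.8 to 60.2 and 6.20 to 21.0). No Cyp3a gene fell between 4.59 and -2.42 log2 CPM per kilobase. The distance from Cyp3a11 to Cyp3a57, 14.50 on that scale, was the widest within any subfamily. Since the prior count lifts genes with few reads, such distances are understated.

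The Cyp3a11 promoter is shown as that of the highest gene of family 3, with the letters TATAAA in capitals.

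Cyp3a11 (chr5:145879855-145880104, minus strand): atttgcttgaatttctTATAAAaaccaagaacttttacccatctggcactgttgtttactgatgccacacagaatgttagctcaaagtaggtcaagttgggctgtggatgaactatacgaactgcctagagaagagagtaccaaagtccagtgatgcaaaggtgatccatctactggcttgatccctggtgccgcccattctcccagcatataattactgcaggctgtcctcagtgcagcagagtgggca

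Here the TATAAA begins 234 bases upstream of the RefSeq start, outside the usual range for a TATA box. Only these exact letters were searched, so close variants, such as the tataat nearer the start, are not marked. GENCODE starts the gene 110 bases further upstream than RefSeq.

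The Cyp2c subfamily was the largest, with reads on 14 of its 15 genes, all but Cyp2c66. Several of its enzymes turn arachidonic acid into epoxides. Together they held 0.308% of all CPM, more evenly spread than in Cyp3a, since the highest gene, Cyp2c29, supplied 34.9% of it. Cyp2c29, a target of CAR, stood at 9.24 log2 CPM per kilobase. Cyp2c70, which makes muricholic acids, the bile acids typical of mice, stood at 8.15 log2 CPM per kilobase and Cyp2c50 at 8.05. Cyp2c23, an epoxygenase also known as Cyp2c44, had 7.27 log2 CPM per kilobase, Cyp2c37 had 6.96, Cyp2c54 had 6.68, Cyp2c67 had 6.52 and Cyp2c68 had 6.13.

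The other 6 Cyp2c genes were lower by a step. Cyp2c38 had 3.45 log2 CPM per kilobase, Cyp2c40 had 2.41, Cyp2c69 had 2.06 and Cyp2c55 had 1.99. Cyp2c39, a retinoic acid hydroxylase, had -0.68 log2 CPM per kilobase and 29.2 estimated reads per library. Cyp2c65, better known from the intestine, had -3.55 log2 CPM per kilobase and 20 reads in all libraries (95% Poisson interval 12.2 to 30.9). Cyp2c66 had no reads in any library, which allows up to 0.0136 CPM, the value of 3 reads over all 8 libraries.

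The Cyp2a subfamily split into pairs. Cyp2a5, the coumarin 7-hydroxylase, had 8.70 log2 CPM per kilobase and Cyp2a12 had 8.60, with 23010 and 17951 estimated reads per library. Cyp2a22 had 0.61 log2 CPM per kilobase and Cyp2a4, a steroid 15-alpha-hydroxylase of female liver, had 0.19, with 73.1 and 52.6 estimated reads per library. Each high gene had a low gene as its nearest relative: the coding sequences of Cyp2a5 and Cyp2a4 are 98.4% identical and their levels 8.51 apart on the log2 CPM per kilobase scale, and those of Cyp2a12 and Cyp2a22 are 97.0% identical and 8.0 apart on that scale. Estimated reads on Cyp2a4 came to 0.229% of those on Cyp2a5. With 14.4% of the 100-base windows of Cyp2a5 also present in another gene, reads of the high copy could be counted on the low one, and what part of the Cyp2a4 reads arose so was not tested.

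The promoters of Cyp2a5 and Cyp2a4 are the closest of the pairs shown, again picked after the levels were seen. Capitals mark the 5 bases of each window that differ or have no partner in the alignment, and 98% of the bases match.

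Cyp2a5 (chr7:26835089-26835338, plus strand): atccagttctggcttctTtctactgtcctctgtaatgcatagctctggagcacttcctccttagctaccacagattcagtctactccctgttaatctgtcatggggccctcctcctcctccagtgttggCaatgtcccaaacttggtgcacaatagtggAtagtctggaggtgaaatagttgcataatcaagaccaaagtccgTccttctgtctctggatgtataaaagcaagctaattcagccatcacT
Cyp2a4 (chr7:26306942-26307191, plus strand): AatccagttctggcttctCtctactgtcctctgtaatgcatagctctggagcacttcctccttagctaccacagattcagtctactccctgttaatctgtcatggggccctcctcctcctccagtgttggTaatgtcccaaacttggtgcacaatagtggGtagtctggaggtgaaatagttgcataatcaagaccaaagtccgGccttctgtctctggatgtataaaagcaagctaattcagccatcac

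Both hold tataaa near their 3′ end, beginning 29 bases upstream of the RefSeq start in Cyp2a5 and 28 in Cyp2a4. Within the 250 bases, then, the promoters of a gene with 23010 and a gene with 52.6 estimated reads per library were almost the same. GENCODE starts Cyp2a5 34 bases and Cyp2a4 23 bases further upstream than RefSeq, so the place of tataaa depends on the annotation.

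Cyp2f2, a periportal enzyme of liver that also acts on naphthalene in lung, is the only gene of its subfamily and had 9.56 log2 CPM per kilobase and 38617 estimated reads per library, or 0.140% of all CPM. In family 1 the levels were 1 high and 2 low. Cyp1a2, which oxidises caffeine and aromatic amines, had 8.74 log2 CPM per kilobase and supplied 99.9% of the Cyp1a reads. Cyp1a1, the classic target of AhR and low in liver without an inducer, had -1.61 log2 CPM per kilobase and 22.2 estimated reads per library. Cyp1b1, expressed mainly outside hepatocytes, had -3.84 log2 CPM per kilobase and 63 reads in all libraries (95% Poisson interval 48.4 to 80.6).

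The Cyp1a genes lie side by side, in opposite orientation, within 26.9 kb of chromosome 9, and their levels were 10.35 apart on the log2 CPM per kilobase scale. Their promoters are shown as the highest gene of family 1 and its low neighbour. In Cyp1a2 the capitals mark TATAAA. In Cyp1a1 they mark GCGTG, the core letters to which AhR and its partner ARNT bind.

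Cyp1a2 (chr9:57683656-57683905, minus strand): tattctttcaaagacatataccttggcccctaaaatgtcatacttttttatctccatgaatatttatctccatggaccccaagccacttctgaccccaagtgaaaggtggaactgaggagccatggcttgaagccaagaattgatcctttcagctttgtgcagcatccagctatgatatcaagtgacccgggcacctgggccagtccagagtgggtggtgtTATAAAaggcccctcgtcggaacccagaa
Cyp1a1 (chr9:57697363-57697612, plus strand): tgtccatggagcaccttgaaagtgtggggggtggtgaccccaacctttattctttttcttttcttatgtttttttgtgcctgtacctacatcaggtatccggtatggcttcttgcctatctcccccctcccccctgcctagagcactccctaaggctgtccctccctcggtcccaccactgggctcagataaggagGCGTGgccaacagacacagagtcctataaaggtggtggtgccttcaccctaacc

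Both carry TATAAA in the usual place, 29 bases upstream of the RefSeq start in Cyp1a2 and 30 in Cyp1a1, and of the pair only the Cyp1a1 window holds GCGTG. GENCODE starts Cyp1a2 48 bases and Cyp1a1 9685 bases further upstream.

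Of 7 Cyp2j genes 4 had reads. Cyp2j5, an arachidonic acid epoxygenase of kidney and liver, had 7.90 log2 CPM per kilobase and 84.3% of the subfamily's CPM. Cyp2j6 had 4.64 log2 CPM per kilobase, Cyp2j9 had 2.79 and Cyp2j8 had -2.13, while Cyp2j11, Cyp2j12 and Cyp2j13 had no reads. Of 5 Cyp2b genes 3 had reads. Cyp2b10, the standard marker of CAR activation, had 3.56 log2 CPM per kilobase and 620 estimated reads per library, or 95.9% of the subfamily's CPM. Cyp2b9 had -1.10 log2 CPM per kilobase, and Cyp2b13, the lowest of the 50 genes, had -4.44 and 3 estimated reads in all libraries (95% Poisson interval 0.619 to 8.77). Cyp2b19 and Cyp2b23 had none.

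The last 4 subfamilies have 1 gene each. Cyp2r1, a vitamin D 25-hydroxylase, had 2.72 log2 CPM per kilobase and Cyp2u1, a fatty acid hydroxylase, had 1.53, with 339 and 345 estimated reads per library. Cyp2g1, an enzyme of the olfactory mucosa, had 0.31 log2 CPM per kilobase, and Cyp2s1, found in epithelia, had -2.24. Cyp2t4 and Cyp2w1 had no reads. In all, 8 of the 58 genes with a fitting symbol were without reads (13.8%), against 30.3% of all genes in the table.

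Close copies often differed in level. Within subfamilies, 27 pairs of genes had coding sequences at least 90% identical, and their levels differed by a median of 4.10 on the log2 CPM per kilobase scale, from 0.22 to 13.18. The 129 pairs under 90% identity differed by a median of 4.69 on that scale. Among the 27 close pairs 18 differed by more than 3 and 5 by less than 1. Of the 129 pairs under 90% identity, 83 differed by more than 3 and 16 by less than 1. Cyp3a11 and Cyp3a44 were 94.9% identical and 12.96 apart, whereas Cyp2c67 and Cyp2c68 were 97.1% identical and 0.39 apart, and Cyp2c37 and Cyp2c54 were 95.1% identical and 0.28 apart, all in log2 CPM per kilobase. Pairs of a subfamily share genes, so they are not independent of each other.

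**Figure D3:**
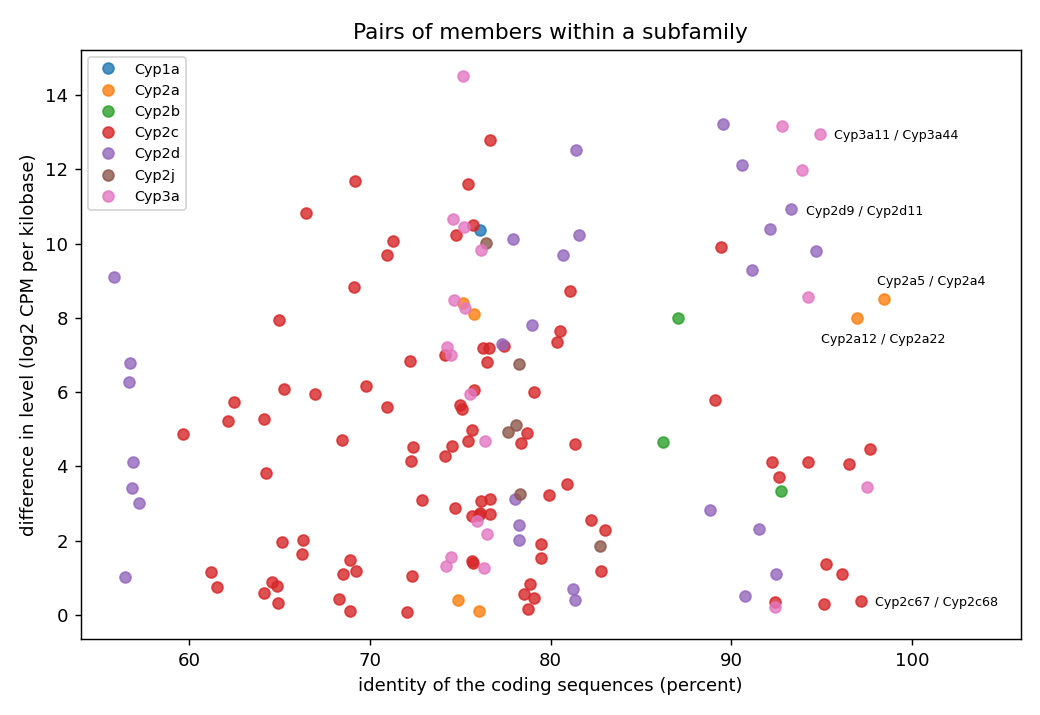
Each point is a pair of P450 genes of 1 subfamily. The x axis is the identity of their coding sequences, as matching bases in percent of the longer sequence. The y axis is the absolute difference of their average levels, in log2 CPM per kilobase. The 27 pairs at 90% identity or more run from 0.22 to 13.18, with none between 4.46 (Cyp2c67 with Cyp2c69) and 8.0 (Cyp2a12 with Cyp2a22).

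The copies bear on the counts as well. Of the 42 genes with a relative in their subfamily, 27 had one at least 90% identical in coding sequence, and the median identity to the nearest relative was 93.1%. When the transcripts were cut into windows of 100 bases, 19 of 49 genes had no window in common with another gene, 8 had more than 10% in common, and the highest share was 44.1%, in Cyp2c40. With windows of 50 bases 27 genes had more than 10% in common. The shares at 100 bases were 36.3% for Cyp2c69, 23.7% for Cyp2c67, 19.8% for Cyp2c68 and 14.8% for Cyp2d10. They were 14.4% for Cyp2a5, 12.2% for Cyp2d11 and 11.2% for Cyp2a4, so the levels of all 8 genes are uncertain. The genes above 10% held 7.28% of the CPM summed over the 50 genes. How the counting treated reads that match several genes was not given in the sources used here.

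High and low genes lay side by side on the chromosomes. The arrays are on 6 chromosomes, and the remaining genes stand alone. On chromosome 15 the array from Cyp2d22 to Cyp2d26 spans 424 kb, and Cyp2d11 at -0.88 log2 CPM per kilobase sits next to Cyp2d10 at 8.93. On chromosome 19 the array from Cyp2c55 to Cyp2c70 spans 1180 kb, with 4 neighbours from Cyp2c37 to Cyp2c70 between 6.68 and 8.15 log2 CPM per kilobase at 1 end. In the 768 kb array on chromosome 5, Cyp3a11, Cyp3a25 and Cyp3a59 lie together and none of the genes before them exceeded the -2.42 log2 CPM per kilobase of Cyp3a44. The 1356 kb array on chromosome 7 holds Cyp2a, Cyp2b, Cyp2f, Cyp2g, Cyp2s and Cyp2t genes, and in the 637 kb array on chromosome 4 Cyp2j5 is the last gene and the highest.

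**Figure D4:**
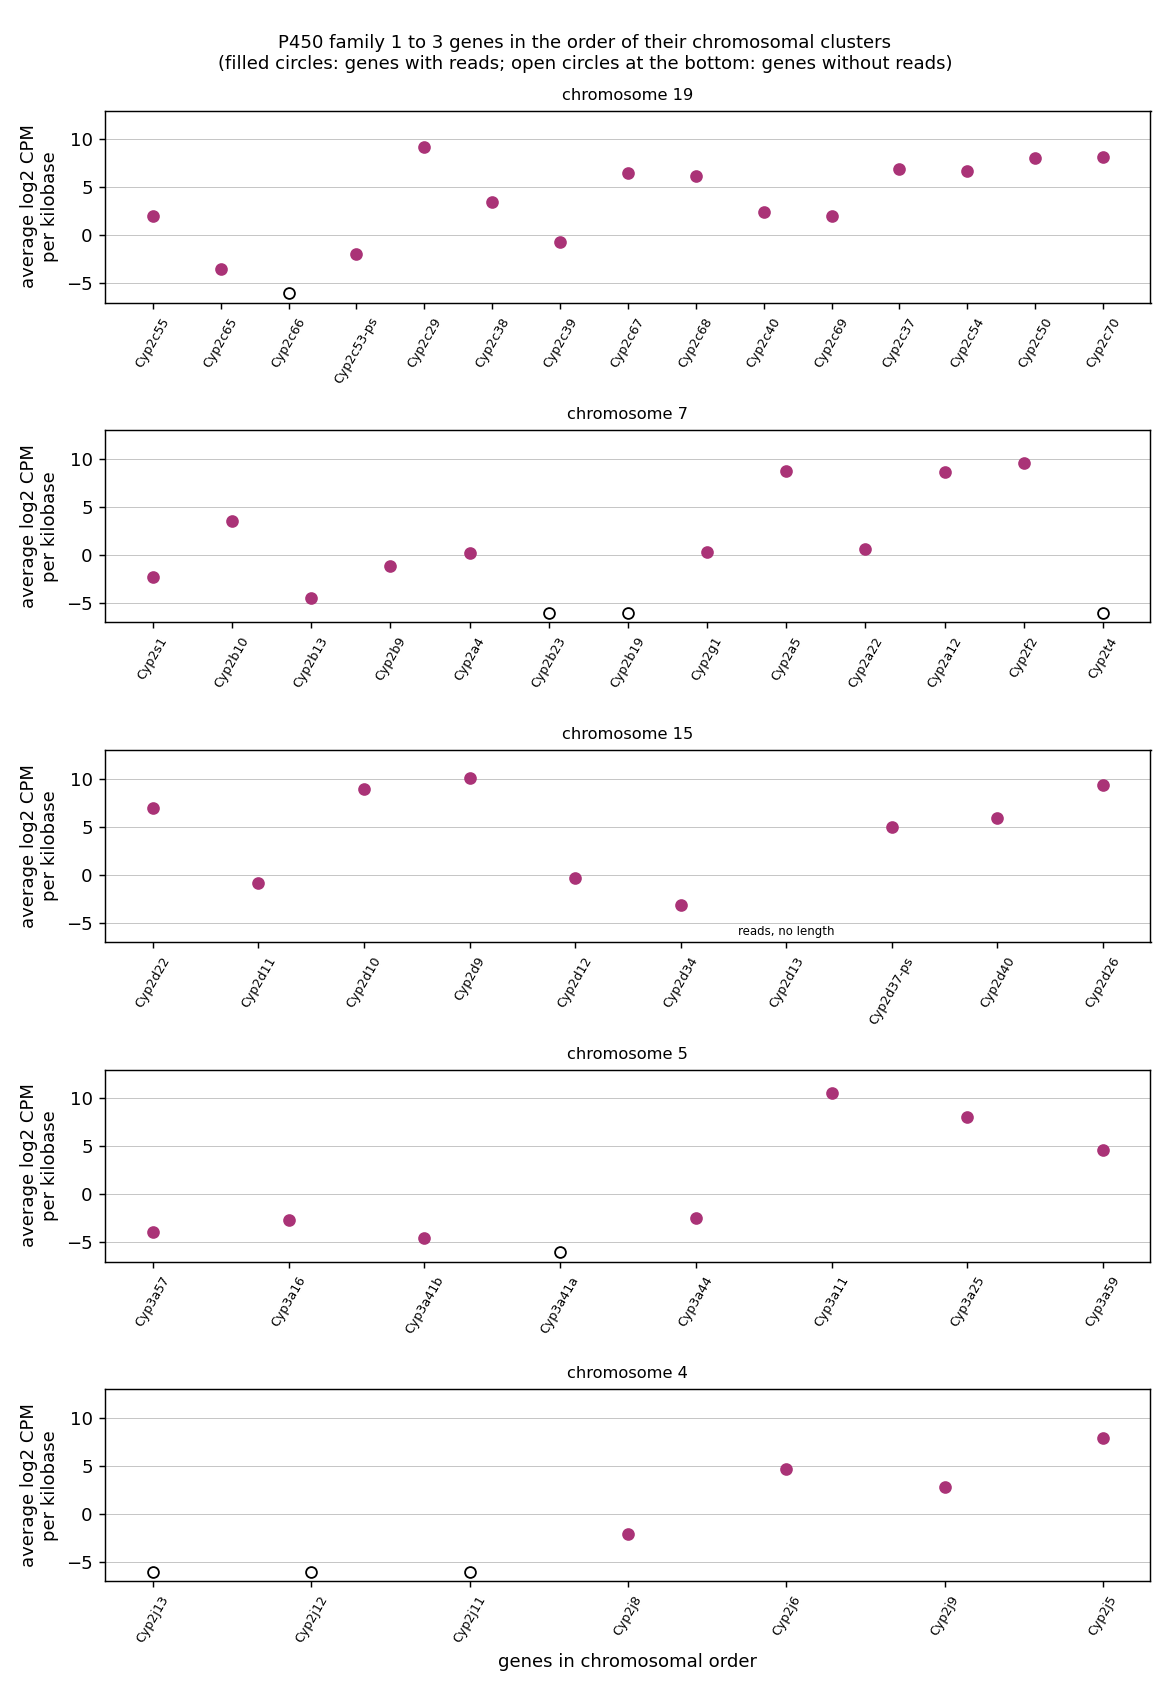
Average level in log2 CPM per kilobase (y axis) of the P450 genes in the 5 larger chromosomal arrays, in chromosomal order (x axis, not to scale), pseudogenes and genes with other symbols included. Filled circles are genes with reads, open circles at the bottom are genes without reads, and Cyp2d13 has reads but no length. High and low genes are interspersed on chromosomes 7, 15 and 19, while on chromosome 5 the 3 high genes are adjacent.

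All 7 Cyp3a genes had 13 exons in the transcript used here. In family 2, 33 genes had 9 exons, 4 genes had 4, 5, 6 and 8, and 2 genes had 10. Both Cyp1a genes had 7 exons and Cyp1b1 had 3. By the RefSeq spans 8 of the 50 genes overlap another gene, and 2 of them overlap a protein-coding one: Cyp2c38, at 39389556 to 39463103 on chromosome 19, lies inside the span given for Cyp2c39, at 39347346 to 39569568, on the other strand. GENCODE starts Cyp2c39 at 39510862, past the end of Cyp2c38. The libraries were made with a stranded kit, and the strand setting of the counting was not given in the sources used here.

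Known zonation and sex markers covered the full range of levels. The 7 genes listed for a known place around the central vein were Cyp1a2, Cyp2a5, Cyp2c29, Cyp2c37, Cyp2c50, Cyp2e1 and Cyp3a11. They were chosen with earlier results of these data known, so they do not stand for pericentral P450 genes in general. These 7 lay between 6.96 and 12.50 log2 CPM per kilobase, and all were among the 20 highest of the 50 genes. Periportal Cyp2f2 lay at 9.56 log2 CPM per kilobase, within that range, and so did Cyp2d9, known as a male gene, at 10.04. The 7 genes listed here as higher in females were Cyp2a4, Cyp2b9, Cyp2b13, Cyp2c40, Cyp2c69, Cyp3a16 and Cyp3a44. They lay between -4.44 and 2.41 log2 CPM per kilobase, with a median of -1.10. This list too was chosen with earlier results of these data known. It does not stand for all P450 genes that are higher in females. All the livers came from males, so no comparison between sexes was possible. Among 4 genes known mainly from other organs, Cyp1b1, Cyp2g1 and Cyp2s1 had reads, none above 0.31 log2 CPM per kilobase, and Cyp2w1 had none. The 4 of the 50 genes that belong to a biotransformation gene set compiled in the study, Cyp1a2, Cyp2a5, Cyp2c29 and Cyp3a11, had between 8.70 and 10.54 log2 CPM per kilobase.

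Transcripts of the proteins that serve the P450 enzymes were measured in the same livers, so the values below are RNA levels, not amounts of protein. Por, the oxidoreductase that passes electrons to all of them, had 8.34 log2 CPM per kilobase. The CPM per kilobase summed over the 49 P450 genes with a length was 14003, which is 43.2 times the 324 of Por. Cyb5a, the microsomal cytochrome b5, had 9.97 log2 CPM per kilobase, Cyb5r3, its reductase, had 7.93, and Cyb5b, the mitochondrial form, had 6.24. All 9 genes of haem synthesis and breakdown had reads. Alas1, the rate-limiting enzyme of haem synthesis, was the highest at 7.37 log2 CPM per kilobase, and Hmox1, which degrades haem, was the lowest at 3.20.

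All 13 transcription factors listed as regulators of P450 genes had reads. Hnf4a, a master regulator of hepatocyte genes, had the most before division by length, with 9.67 log2 CPM and 7.54 log2 CPM per kilobase, and Cebpa had 7.66 log2 CPM per kilobase. Ahrr, a repressor of AhR, was the lowest at -4.54 log2 CPM per kilobase. PPARɑ's own gene, Ppara, had 6.60 log2 CPM per kilobase, its partner Rxra 6.44, the CAR gene Nr1i3 6.17, the PXR gene Nr1i2 5.63 and Ahr 1.74. Cux2, a factor of female liver, had -3.68 log2 CPM per kilobase.

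Promoter letters were compared for the 42 P450 genes with a RefSeq promoter, in the 250 bases before the start and on both strands. TATAAA occurred in 22 of 42 (52.4%), against 12.97% of all 27025 promoters. On the gene's own strand and beginning 20 to 40 bases upstream of the RefSeq start, it occurred in 10 of 42 (23.8%), against 2.22% of all. They were Cyp1a1, Cyp1a2, Cyp2a4, Cyp2a5, Cyp2a12, Cyp2a22, Cyp2c38, Cyp2c55, Cyp2c67 and Cyp2e1. GENCODE starts some of them at other bases, as given above. Of these 10, 5 belong to genes of at least 5 log2 CPM and 5 to lower ones. AGGTCA, the core element of many nuclear receptors, occurred in 12 of 42 (28.6%), against 13.8% of all promoters, and GTTAAT, part of the element of the liver factor HNF1, in 6 of 42 (14.3%), against 6.52%. CCAAT occurred in 15 of 42 (35.7%), near the 34.5% of all promoters, with 11 of them among the 21 genes of at least 5 log2 CPM and 4 among the 21 lower ones. GCGTG was rarer than in all promoters, in 5 of 42 (11.9%), namely Cyp1a1, Cyp1b1, Cyp2b10, Cyp2c68 and Cyp2j9, against 28.2%. Close copies share their promoter letters, so these counts are descriptions, and a match is not a bound site.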

How the data were processed

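Total RNA from frozen livers of 4 wild-type and 4 V227A mice was made into stranded poly-A libraries and sequenced as read pairs. Per the labels, the authors trimmed reads with Trimmomatic, assessed them with FastQC, aligned them to GRCm38 (mm10) with STAR, counted them per gene with featureCounts and analysed the counts with edgeR. The versions, the annotation and the settings for strand and multiply mapped reads were not given in the sources used here. The deposited table has 27179 genes. Of its columns only the average log2 CPM was used, a value the authors made with edgeR over all 8 libraries. Another 4 columns hold the authors' comparison of the genotypes (log2 fold change, F statistic, p-value and false discovery rate) and were not used, so no test was run and no genotype difference is given. There were 8242 genes at the lowest value, -3.78, which was taken as 0 reads at a prior count of 2, the default of the authors' tool. This gave the mean effective library size, and 99.9% of the 2378 genes with 1 to 5 estimated reads in total came within 0.1 of a whole number. Depths of single libraries were not analysed here.

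CPM was summed after undoing the logarithm. Levels per kilobase used the longest protein-coding transcript of GENCODE vM21 (GRCm38), or the longest of any kind where none was protein-coding. A length was found for 94.8% of genes with reads. Coding sequences were aligned with Biopython 1.88 (global, match 1, mismatch -1, gap opening -4, gap extension -0.5). Their identity is the matching bases as a percent of the longer sequence, so missing length counts as mismatch. Windows of 50, 100 and 150 bases of the transcripts were looked up in the transcripts of all other genes. Genes less than 1000 kb apart formed an array. Promoters are the 250 bases before the start in RefSeq (GRCm38.p6), without the part RefSeq lists as transcribed. The scripts ran under Python 3.11.15. Simulated data checked only the arithmetic of the estimated reads and of the shared windows, not edgeR's averaging. The P450 genes and all gene lists were chosen with earlier results of these data known. Named in the text were the 20 highest genes, the highest of each subfamily, the genes of the zonation, sex and other lists, the lowest gene, all electron donors, and the highest and lowest of the other partner lists. Other genes were added after their values were seen.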

Additional observations from a re-analysis of the deposited data

How the results depend on the processing

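The share of all CPM held by the 50 P450 genes was 2.66%. It moved by more than its 95% binomial interval under 3 of 4 settings. That interval covers counting error only, not the spread between animals. It is narrow at this depth, so even small shifts exceed it. All settings used the same reads, so passing it is not a test. The share was 2.66356% with the prior count removed, 2.51129% per kilobase of transcript and 2.66458% over genes of at least 0 log2 CPM. With symbols that have a trailing letter or a subfamily of more than 1 letter included, the share was 2.66% over 52 genes. Of 54 subfamily shares recomputed under these settings, 39 moved by less than their 95% binomial interval and 15 by more, most of them per kilobase. P450 genes of at least 5 log2 CPM numbered 25, and 31 (62%) reached 3 log2 CPM, against 41.1% of all genes with reads. Counted over all genes in the table, those without reads included, 12.8% reached 5 log2 CPM. With the coding length in place of the transcript length, 19 of the 20 highest genes per kilobase stayed among the 20 highest.

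No paired analysis was possible because only averages over all libraries were used. For the same reason no library was left out in turn. Depth limits the 8 genes with under 100 reads in all libraries, and a gene without reads has an upper limit of 0.0136 CPM. Levels of close copies depend on how shared reads were counted.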

Other observations

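Rows of the same families whose symbols fall outside the pattern held few reads, with 1 exception. Cyp2d37-ps, annotated as a pseudogene within the Cyp2d array, had 4.98 log2 CPM per kilobase and 1456 estimated reads per library, and Cyp2d12 in the same array had -0.36 log2 CPM per kilobase. Cyp2c53-ps had 8.52 estimated reads per library, Cyp2ab1 had 1.13 and Cyp3a41b had 0.502. Cyp3a41a had none, and its coding sequence is 99.9% identical to that of Cyp3a41b. How reads common to both were counted was not given in the sources used here.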
